A study of Homo sapiens with 3 samples.

Results

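Aminoacyl-tRNA synthetases were measured by RNA-seq in HGC-27, an established cell line from a human gastric cancer. The 39 genes were taken by name from the deposited table of 58735 genes, and all 39 were found: 18 enzymes of the cytosol, 2 that serve both cytosol and mitochondria (GARS and KARS), 16 mitochondrial enzymes (names ending in 2) and 3 scaffold proteins (AIMP1, AIMP2 and EEF1E1). The cells carried a control hairpin (shControl, genotype labelled WT, column named Scramble, 1 library) or a hairpin against USP16, a histone H2A deubiquitinase (shUSP16-1 and shUSP16-2, 2 libraries). All 3 were grown in medium with serum, and the labels' protocol for all 3 also lists dexamethasone, isobutylmethylxanthine and insulin. The labels do not say whether shUSP16-1 and shUSP16-2 are different hairpins or repeats, nor whether the cultures were separate. The p-values therefore reflect no more than library-to-library spread, possibly technical. Every difference below is from 1 control library, and an exact permutation test of 1 library against 2 cannot give a p below 0.333.

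Each synthetase joins 1 amino acid to its tRNAs, which then deliver it to the ribosome. The human cytosolic and mitochondrial enzymes are mostly made from separate nuclear genes. In the cytosol several synthetases and the 3 scaffold proteins are bound in the multisynthetase complex. Many of the cytosolic genes are known targets of ATF4, the transcription factor of the amino acid stress response, and MYC is also known to act on genes of protein synthesis.

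The libraries held 30131136, 29530581 and 31187845 reads, recovered from the deposited FPKM (fragments per kilobase of gene, scaled to library size). The targeted gene, USP16, was at 6.28 FPKM with the control hairpin, against 4.29 in the library labelled shUSP16-1 and 5.98 in that labelled shUSP16-2, close to the control. In limma, USP16 did not pass (log2 difference -0.26, SE 0.20, adjusted p = 0.564), and directions below rest on the labels. Of 5 epithelial markers (KRT8, KRT18, KRT19, EPCAM, CDH1) 0 reached a mean of 1 FPKM, and neither did any of 5 gastric markers. VIM had 155 to 180 FPKM, and the 4 fibroblast markers DCN, LUM, COL1A1 and COL3A1 together had 286 FPKM in shControl, 276 in shUSP16-1 and 377 in shUSP16-2. An epithelial identity, which the label implies, was therefore not seen in these markers. The part of these markers in the results below was not tested, and fewer cells of a type cannot be told apart from less RNA per cell in bulk samples.

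Cytosolic synthetase mRNAs stood well above mitochondrial ones in every library. FPKM is a level per length, so genes can be compared on it. The median over the 18 cytosolic genes was 29.6 FPKM in shControl, 39.7 in shUSP16-1 and 42.9 in shUSP16-2. Over the 16 mitochondrial genes it was 5.76, 7.07 and 7.12 FPKM. The ratio of these medians was 5.13 in shControl, 5.61 in shUSP16-1 and 6.02 in shUSP16-2, so the mitochondrial set was the lower one by a wide margin in all 3 libraries. Per length of the longest coding transcript, chosen after seeing the data, the ratio was 6.24, 5.69 and 6.41. With that length shUSP16-1 was below shControl.

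AARS, the alanine enzyme (ENSG00000090861, GRCh38 chromosome 16, 70252295 to 70289543, minus strand), had the highest level in shControl, with 107 FPKM, and 115 and 110 in shUSP16-1 and shUSP16-2. GARS, the glycine enzyme of both compartments (ENSG00000106105, chromosome 7, 30594681 to 30634033, plus strand), had 95.6, 119 and 129 FPKM, and was the highest in both shUSP16 libraries. SARS, for serine, had 89.7, 102 and 109 FPKM, and IARS, for isoleucine, had 86.3, 104 and 102. These 4 genes made up 34.5% of the summed FPKM of the 39 genes in shControl, 33.1% in shUSP16-1 and 32.2% in shUSP16-2. Across libraries the order of levels was nearly the same: the same 10 genes were on top, and no gene moved by more than 4 places. Neighbours in that order, such as SARS and IARS, often lay within the spread of the shUSP16 libraries.

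CARS, for cysteine, with 12.1 to 14.0 FPKM, and HARS, for histidine, with 8.42 to 12.0 FPKM, were the 2 lowest cytosolic genes. IARS2, the mitochondrial isoleucine enzyme, was the highest mitochondrial gene, with 31.6, 38.8 and 38.98 FPKM, above several cytosolic genes. YARS2, for tyrosine, came next with 13.9, 18.1 and 19.2 FPKM. SARS2, for serine, was the lowest of all members, with 0.304, 0.373 and 0.329 FPKM from 32, 36 and 33 reads. Of its merged exon bases 57.0% are also exons of other genes, 46.2% of them of AC011455.2 on the same strand and 10.8% of MRPS12 on the opposite strand. The handling of reads in shared bases is not stated, so the low level of SARS2 is uncertain. It is the single member below the mean of 1 FPKM required for testing, so 38 members were tested.

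**Figure D1:**
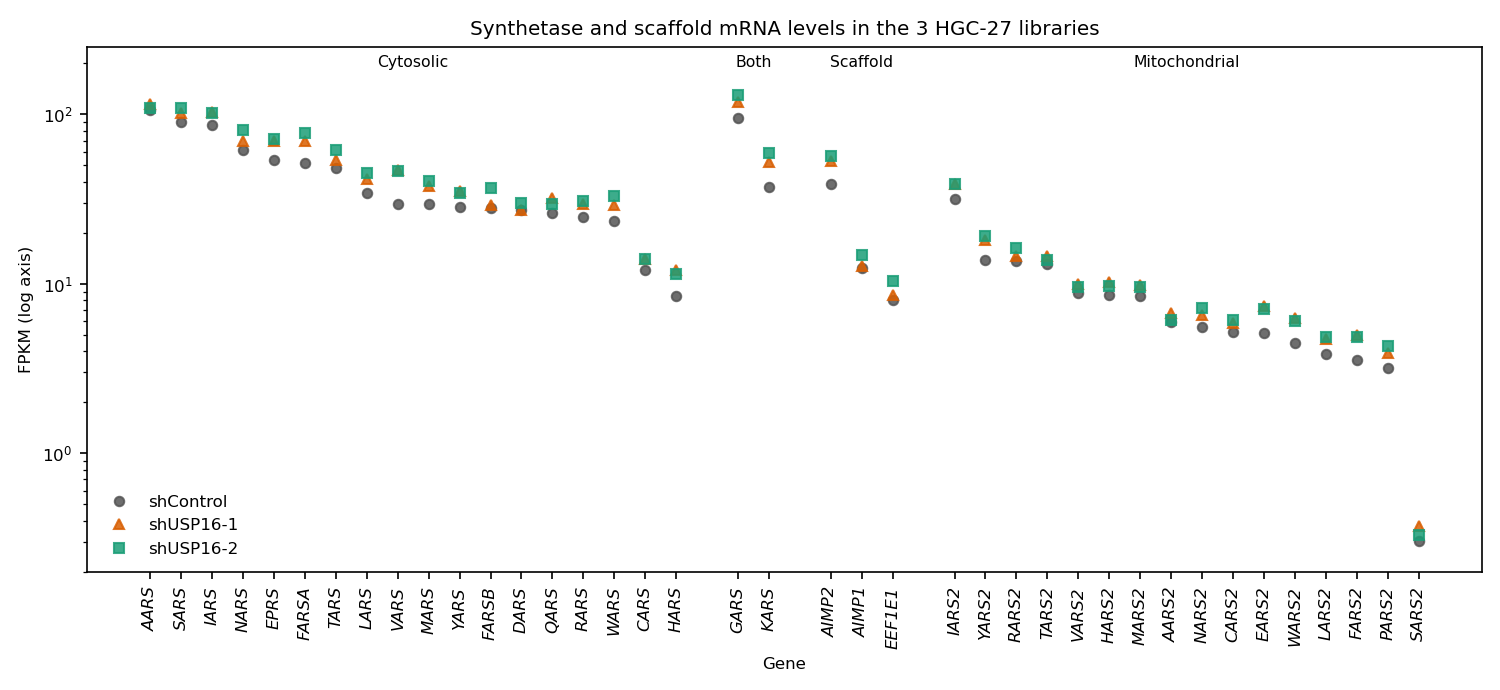
FPKM (log axis) of the 39 genes in shControl (grey circles), shUSP16-1 (orange triangles) and shUSP16-2 (green squares), 1 point per library, by compartment and by level in shControl. Cytosolic genes run from 8.42 to 107 FPKM in shControl and mitochondrial genes from 0.304 to 31.6.

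The same contrast was seen within amino acids. In 17 pairs of a cytosolic and a mitochondrial gene for the same amino acid (EPRS, which carries both the glutamate and the proline enzyme, against EARS2 and PARS2; FARSA and FARSB, the 2 subunits of the phenylalanine enzyme, each against FARS2), the cytosolic gene was higher in 16 in shControl. The exception was HARS against HARS2, with a ratio of 0.984 in shControl, 1.18 in shUSP16-1 and 1.18 in shUSP16-2. Per length of the longest coding transcript instead of all merged exons, HARS was above HARS2 in shControl too, with a ratio of 1.49. HARS and HARS2 are head to head on chromosome 5 and share 437 exon bases, so reads there cannot be given to either without strand. In shControl the widest pair after SARS and SARS2 was AARS and AARS2, with ratios of 17.9, 17.1 and 17.9. The median over the 17 pairs was 5.23 in shControl, 4.66 in shUSP16-1 and 5.45 in shUSP16-2. A pair's ratio was above that of shControl in both shUSP16 libraries for 5 pairs and below it in both for 5. Ratios exceeded it in 7 of 17 pairs in shUSP16-1 and in 10 in shUSP16-2, and averaged over both libraries the cytosolic gene had the larger log2 difference in 12. The clearest shift was VARS over VARS2, for valine, from 3.33 to 4.66 and 4.84.

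**Figure D2:**
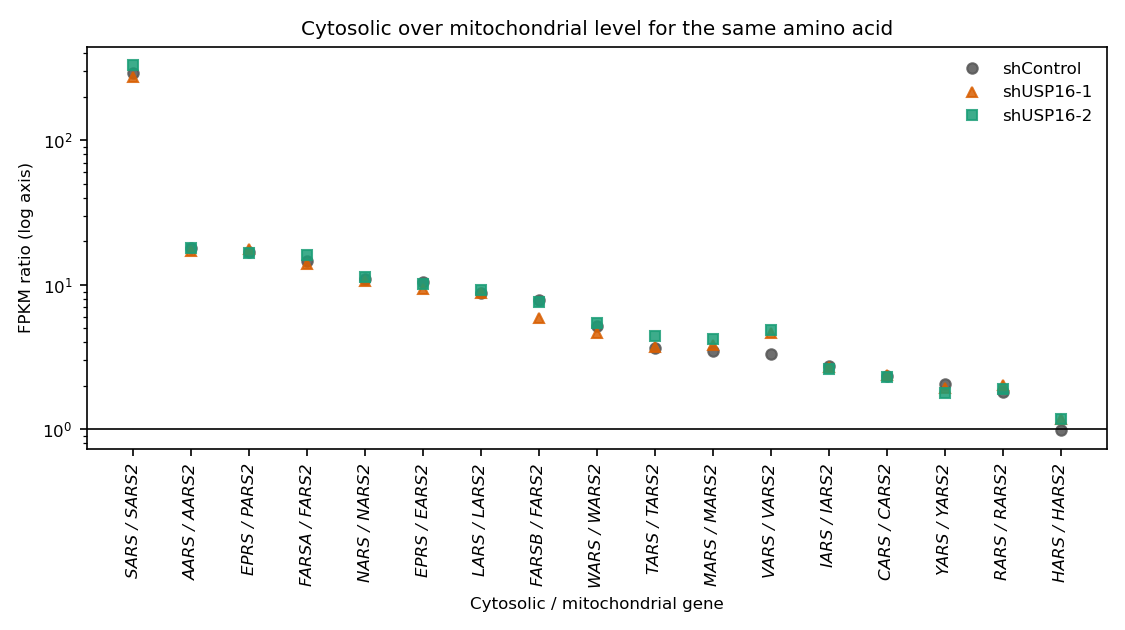
Ratio of cytosolic to mitochondrial FPKM (log axis) for 17 pairs of genes of the same amino acid, 1 point per library. All pairs but HARS and HARS2 lie above 1 in shControl, and the points of the 3 libraries mostly overlap.

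Nearly all synthetase mRNAs were slightly higher in both libraries labelled shUSP16 than in shControl, but no member passed the test. Of 38 tested members, 37 were above shControl in both libraries and 0 were below it in both, where 44.9% of all 13852 tested genes were above and 32.4% below in both. Among protein-coding genes averaging 5 FPKM or more, a level nearer to that of the members, 60.1% were above in both. The exception was DARS, for aspartate, with 27.4 FPKM in shControl, 27.3 in shUSP16-1 and 30.0 in shUSP16-2. Averaged over both libraries, the median difference in log2(FPKM + 1) was 0.27 for the 18 cytosolic and 0.25 for the 15 tested mitochondrial genes. It was 0.04 for all tested genes and 0.11 for the protein-coding genes averaging 5 FPKM or more. Cytosolic and mitochondrial genes thus had nearly equal medians, and their middle ranges overlapped, from 0.23 to 0.39 and from 0.16 to 0.33. By library the cytosolic and mitochondrial medians were 0.27 and 0.23 in shUSP16-1, and 0.37 and 0.27 in shUSP16-2. USP16 itself was closer to shControl in shUSP16-2, and a relation of its level to these medians was not tested. The shift is small: of the 38, 11 were at least 25% above shControl in both libraries (9.54% of all tested genes), 5 of them cytosolic, 4 mitochondrial, besides KARS and AIMP2.

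limma called 0 of 38 members and 0.00% of all tested genes at an adjusted p of 0.05. At an unadjusted p under 0.05 it had 14 members, all higher, beside 14.5% of all tested genes. Those with such a p and a higher level were 8.71% of all tested genes. The lowest adjusted p among members was 0.272. limma voom on the recovered reads called 3 members, all higher (FARSA, KARS and VARS), beside 2.51% of all genes, 1.47% higher. When the recovered reads gave the totals, it called KARS and VARS, beside 4.02% of all genes, 1.00% higher. The fit has 1 residual degree of freedom, and the lone control is assumed to vary like the shUSP16 libraries.

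The counts above depend on how the libraries were scaled. The authors' FPKM imply totals of 1.08, 1.01 and 0.994 times the recovered reads, which lowers shControl relative to the others. Scaled by sums of reads instead, 29 of 38 members were higher in both libraries and 0 lower in both, beside 31.3% and 45.4% of all tested genes, and 41.7% of the protein-coding genes at 5 FPKM or more were higher in both. At least 25% above shControl in both were 7 members, beside 5.00% of all tested genes. The median differences were then 0.17 for cytosolic and 0.16 for mitochondrial genes. They were -0.05 for all tested genes and 0.017 for the protein-coding genes at 5 FPKM or more. The differences of AARS, AARS2 and DARS turned just below 0. The exact binomial 95% interval of the ratio of reads, which covers counting error only, lay above 1 in both libraries for 31 of 38 tested members with the authors' scaling, beside 28.0% of all tested genes. With sums of reads it did so for 23, beside 17.0%. Such intervals narrow with more reads, so genes with few reads pass less often. A share among genes of similar level was not computed.

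**Figure D3:**
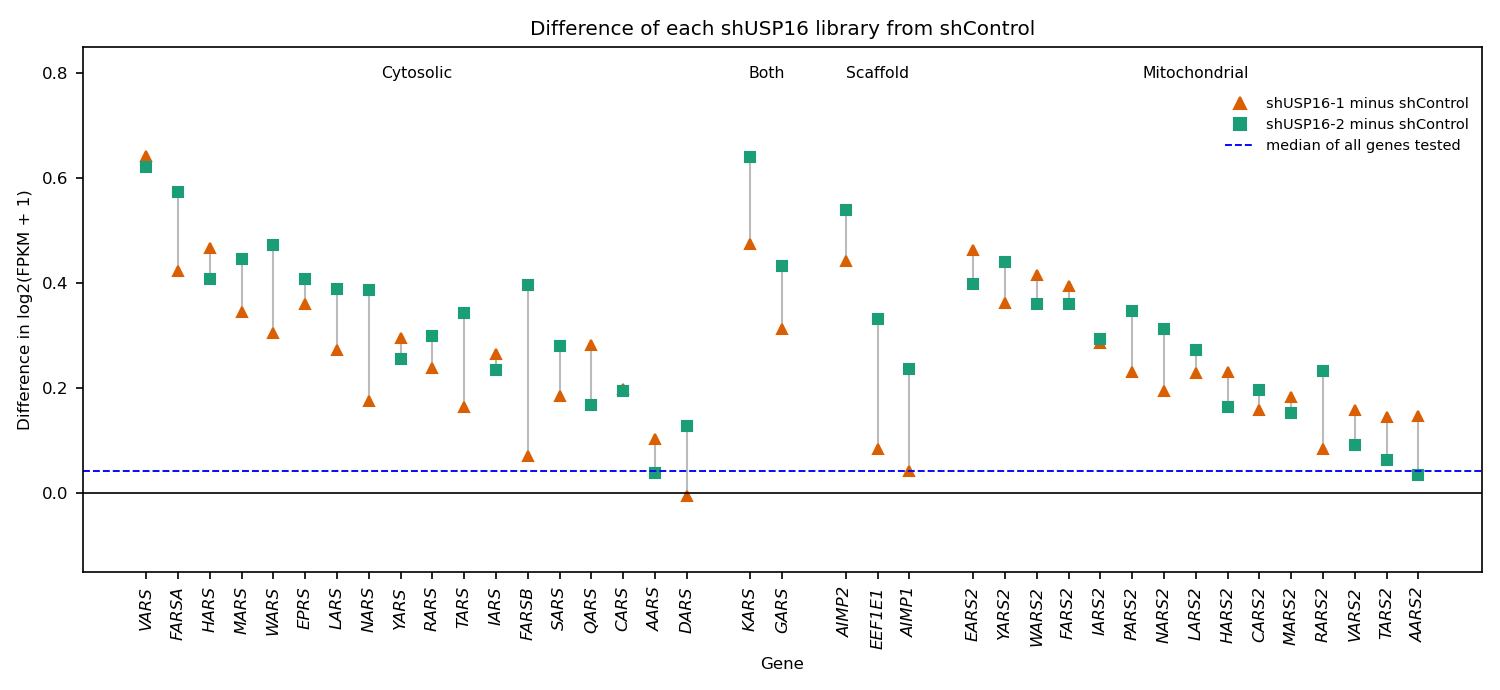
Difference in log2(FPKM + 1) from shControl of shUSP16-1 (triangles) and shUSP16-2 (squares) for the 38 tested genes, by compartment, with a line between the 2 values of a gene. The dashed line is the median of all tested genes, 0.04. For protein-coding genes averaging 5 FPKM or more the median is 0.11, with no line drawn. DARS in shUSP16-1 is the single point below 0.

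VARS, the valine enzyme, a large class I synthetase (ENSG00000204394, chromosome 6, 31777518 to 31795953, minus strand), had the largest difference of all members. It had 29.6 FPKM in shControl, 46.8 in shUSP16-1 and 46.1 in shUSP16-2. Both shUSP16 libraries were well above shControl and close to each other. The limma log2 difference was 0.63 (SE 0.11, adjusted p = 0.272), and voom called it (adjusted p = 0.0122, or 0.0148 with sums of reads). The ratio to shControl was 1.58 in shUSP16-1 (interval 1.53 to 1.63) and 1.56 in shUSP16-2 (1.51 to 1.61).

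KARS, the lysine enzyme, makes both a cytosolic and a mitochondrial protein from 1 gene by alternative splicing (ENSG00000065427, chromosome 16, 75627474 to 75648643, minus strand). It had 37.5 FPKM in shControl, 52.4 in shUSP16-1 and 59.0 in shUSP16-2. Both shUSP16 libraries were thus above the lone shControl, as in 44.9% of all tested genes. The limma log2 difference was 0.56 (SE 0.13, adjusted p = 0.280), and voom called it (adjusted p = 0.0282, or 0.0406 with sums of reads). The values do not tell the 2 products apart.

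FARSA and FARSB encode the alpha and beta subunits of the cytosolic phenylalanine enzyme, a tetramer of equal numbers of each. FARSA (ENSG00000179115, chromosome 19, 12922479 to 12934037, minus strand) had 51.9 FPKM in shControl, 69.9 in shUSP16-1 and 77.8 in shUSP16-2. FARSB (ENSG00000116120, chromosome 2, 222570536 to 222656337, minus strand) had 27.8, 29.3 and 37.0 FPKM, so shUSP16-1 lay near shControl. FARSA was 1.86 times FARSB in shControl, 2.39 times in shUSP16-1 and 2.10 times in shUSP16-2, so the mRNA levels of the 2 subunits were not equal in any library. For FARSA voom gave an adjusted p of 0.0483 with the totals implied by FPKM and 0.0838 once libraries were scaled by their reads, which misses the threshold.

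Members of the multisynthetase complex and the free enzymes had nearly equal median differences. Of its 11 genes, 10 were higher in both libraries, beside 44.9% of all tested genes, with a median difference of 0.27. Its 7 purely cytosolic enzymes had a median of 0.27 and the 11 cytosolic enzymes outside it 0.27. Its scaffold genes differed among themselves. AIMP2 (ENSG00000106305, chromosome 7, 6009245 to 6023834, plus strand) had 38.8, 53.1 and 56.8 FPKM, a limma log2 difference of 0.49 (SE 0.12, adjusted p = 0.280). AIMP1, with 12.4, 12.8 and 14.8 FPKM, and EEF1E1, with 8.02, 8.56 and 10.3, were lower in level and close to shControl in shUSP16-1. Of the exon bases of AIMP2, 28.9% are also exons of EIF2AK1 on the opposite strand, which had 53.8, 56.6 and 53.5 FPKM. EPRS, the bifunctional glutamate and proline enzyme of the complex, had 53.8, 69.4 and 71.7 FPKM. MARS, for methionine, had 29.5, 37.8 and 40.6 FPKM; it shares 355 exon bases with DDIT3 on the opposite strand, which had 29.8, 15.8 and 15.5. LARS, for leucine, had 34.2, 41.6 and 45.1 FPKM, QARS, for glutamine, 26.2, 32.1 and 29.6, and RARS, for arginine, 24.8, 29.5 and 30.8.

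The other free cytosolic enzymes were NARS, TARS, YARS and WARS. NARS, for asparagine, had 61.4, 69.5 and 80.6 FPKM, and TARS, for threonine, 48.2, 54.1 and 61.4. YARS, for tyrosine, had 28.5, 35.2 and 34.2 FPKM, and WARS, for tryptophan, which is also induced by interferon, 23.4, 29.2 and 32.9. In each of these 4 both shUSP16 libraries were above shControl, as in 44.9% of all tested genes. None of the 4 passed limma (adjusted p from 0.316 to 0.422).

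Among mitochondrial genes the largest differences were those of EARS2, YARS2, WARS2 and FARS2, and they were at least 25% above shControl in both libraries. EARS2, for glutamate, had 5.13, 7.44 and 7.08 FPKM (limma log2 difference 0.43, SE 0.12, adjusted p = 0.292). WARS2, for tryptophan, had 4.48, 6.31 and 6.04 FPKM, and FARS2, for phenylalanine, a single-chain enzyme unlike its cytosolic counterpart, had 3.57, 5.00 and 4.86. In all 4 the shUSP16 libraries lay closer to each other than to shControl. The 4 were picked for large differences in both libraries, which makes this likely, and the share over all tested genes was not counted. LARS2, PARS2, NARS2 and IARS2 had log2 differences from 0.25 to 0.29. HARS2, CARS2, MARS2, RARS2, VARS2, TARS2 and AARS2 were the smallest, from 0.20 down to 0.09, with levels of 5.18 to 13.7 FPKM in shControl. VARS2 shares 22.0% of its exon bases with GTF2H4 on the same strand, which had 7, 2 and 2 reads. By fold of the enzymes' cores, class I genes had a median difference of 0.27 over 19 and class II genes 0.25 over 16 tested. EPRS, which carries both the glutamate and the proline enzyme, was counted in class I only.

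Synthetase genes known as ATF4 targets had a lower median difference than the other genes active in the cytosol. Of these 12 genes (AARS, CARS, EPRS, GARS, IARS, LARS, MARS, NARS, SARS, TARS, WARS and YARS), a list drawn from general knowledge, 12 were higher in both libraries, with a median difference of 0.28. Of the other 8 (DARS, FARSA, FARSB, HARS, KARS, QARS, RARS and VARS), 7 were, with a median of 0.35. Over all tested genes 44.9% were higher in both. The ranges of the lists overlapped, from 0.07 to 0.40 for the 12 and from 0.06 to 0.63 for the 8. All 3 members that voom called are among these 8; the difference between the lists was not tested.

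Promoters were read for the 33 members in the RefSeq promoter table (GRCh38.p14), each from 250 bases before to 50 bases after the start. The core of the C/EBP-ATF response element, the site bound by ATF4, was searched as TGATGNAA on both strands. It was found in 6 of 14 cytosolic genes (42.9%), 1 of 14 mitochondrial genes (7.14%) and 2.69% of 22199 promoters of protein-coding genes. All 6 cytosolic genes are in the ATF4 list, of which 10 had a promoter entry. The 6 are shown because they carry the same 8 letters, in capitals (TGATGCAA, or TTGCATCA where it lies on the opposite strand), and in 5 of them, all but AARS, they begin within 15 bases of the start site. Each line is 5′ to 3′ on the strand of the gene.
AARS, chr16:70289670-70289709, minus strand: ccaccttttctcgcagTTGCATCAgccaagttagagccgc
CARS, chr11:3057402-3057441, minus strand: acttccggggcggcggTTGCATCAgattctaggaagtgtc
IARS, chr9:92293687-92293726, minus strand: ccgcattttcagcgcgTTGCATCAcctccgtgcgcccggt
MARS, chr12:57488048-57488087, plus strand: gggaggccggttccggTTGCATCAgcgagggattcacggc
NARS, chr18:57621799-57621838, minus strand: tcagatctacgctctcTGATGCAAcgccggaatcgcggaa
TARS, chr5:33440951-33440990, plus strand: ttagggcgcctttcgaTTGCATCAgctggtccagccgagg

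These 6 genes had a median difference of 0.25, from 0.07 for AARS to 0.40 for MARS. The 8 cytosolic genes with a promoter entry and without the letters had a median of 0.33, from 0.22 for QARS to 0.50 for FARSA. These 8 include EPRS, SARS and WARS of the ATF4 list. DARS, LARS, VARS and YARS have no promoter entry, so the smallest and largest cytosolic differences (0.06 for DARS, 0.63 for VARS) are left out. The difference between the genes with and without the letters was not tested. The 2 voom calls with a promoter entry, FARSA and KARS, hold neither TGATGNAA nor CACGTG, the E-box bound by MYC, in this window. Most promoters of protein-coding genes lack each of these too: TGATGNAA was in 2.69% and CACGTG in 8.34%. VARS, also called by voom, is among the genes without an entry. The promoters of FARSA and KARS are shown in full, with no capitals because nothing searched for was found.
FARSA, chr19:12933662-12933961, minus strand: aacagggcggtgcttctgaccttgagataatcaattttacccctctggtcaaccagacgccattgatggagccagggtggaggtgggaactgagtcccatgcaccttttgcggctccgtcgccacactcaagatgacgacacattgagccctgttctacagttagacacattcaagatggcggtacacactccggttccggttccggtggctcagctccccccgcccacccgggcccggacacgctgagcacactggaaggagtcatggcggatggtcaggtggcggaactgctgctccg
KARS, chr16:75647616-75647915, minus strand: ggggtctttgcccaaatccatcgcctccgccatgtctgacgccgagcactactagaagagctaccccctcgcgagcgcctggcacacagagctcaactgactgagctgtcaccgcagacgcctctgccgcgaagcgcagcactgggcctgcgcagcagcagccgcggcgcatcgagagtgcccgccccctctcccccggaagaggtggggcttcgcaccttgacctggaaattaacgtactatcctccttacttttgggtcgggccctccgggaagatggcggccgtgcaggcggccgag

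CACGTG, which reads the same on both strands, was found in 4 of 33 members (12.1%): IARS, CARS2, EARS2 and MARS2. It was in 8.34% of promoters of protein-coding genes. A match is a string of letters in this window and does not show binding.

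The transcription factor genes themselves were higher in both libraries without passing limma. ATF4 had 270, 346 and 351 FPKM (log2 difference 0.37, SE 0.10, adjusted p = 0.280), and MYC had 114, 143 and 149 (0.36, SE 0.11, adjusted p = 0.292). The amino acid stress response, a list of 20 genes around ATF4, was split: 10 were higher in both libraries and 7 lower in both. Over all tested genes 44.9% were higher in both and 32.4% lower in both, so the split was near that of all genes. Its median difference over both libraries was 0.14, or 0.029 with sums of reads, against 0.04 and -0.05 for all tested genes. Protein-coding genes averaging 5 FPKM or more had medians of 0.11 and 0.017, near those of the list. By library the median of the list was 0.13 in shUSP16-1 and -0.0037 in shUSP16-2, and with sums of reads 0.042 and -0.12. Its sign thus differed between the libraries. The stress-induced transcription factor genes ATF3, with 25.8, 11.3 and 12.9 FPKM, and DDIT3 were below shControl in both. limma called 0 of the list over all genes and 2, both lower, among protein-coding genes (0.280% of which it called lower). voom called 2 lower and 1 higher with the totals implied by FPKM, beside 1.04% of all genes lower. With totals from the recovered reads it called 4 lower and 1 higher, beside 3.02% lower. SLC7A5, a transporter of large neutral amino acids, had 105, 174 and 157 FPKM. ASNS, the asparagine synthetase and a standard ATF4 target, had 10.2, 7.43 and 7.75 FPKM, and was named after its values were seen. It is 1 of the 7 genes lower in both. PHGDH, with 70.7, 83.7 and 83.9 FPKM, and PSAT1, with 424, 487 and 498, were among the 10 higher in both. They were also named after their values were seen. The synthetase genes thus lay above shControl more often than this list, with no test of the difference between them.

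Other genes of tRNA supply, apart from enzymes related to the synthetases, were also more often above shControl than all genes. Over all tested genes 44.9% were higher in both libraries, or 31.3% with sums of reads. Among protein-coding genes averaging 5 FPKM or more the shares were 60.1% and 41.7%. Of 38 tRNA modification genes 31 were higher in both libraries and 3 lower in both, with a median of 0.20. With sums of reads these were 20 and 7, with a median of 0.098. WDR4 and METTL1, the 2 subunits of a tRNA methyltransferase, had 7.93, 13.0 and 12.7 FPKM and 1.97, 3.04 and 3.56 FPKM, and QTRT1, of queuine exchange, 23.4, 34.2 and 32.2. Of 19 genes of tRNA processing and export 14 were higher in both and 1 lower, with a median of 0.27, or 13 and 2 with a median of 0.18 by sums of reads. RTCB, the tRNA ligase, had 17.1, 26.8 and 28.4 FPKM, POP1, of RNase P, 3.43, 5.28 and 5.89, and TSEN15, of the splicing endonuclease, 9.89, 13.5 and 14.3.

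Of 17 genes of mitochondrial tRNA handling and translation, 14 were higher in both and 2 lower in both, with a median of 0.21, or 11 and 2 with a median of 0.12 by sums of reads. TUFM, the mitochondrial elongation factor, had 92.0, 129 and 137 FPKM. HSD17B10 and TRMT10C, both of mitochondrial RNase P, had 67.9, 97.4 and 101 FPKM and 17.1, 23.6 and 24.0 FPKM. Of 4 tested genes that deliver aminoacyl-tRNA in the cytosol 3 were higher in both: EEF1A1 had 1285, 1472 and 1568 FPKM, EEF1B2 195, 252 and 258, and EEF1D 4.06, 6.50 and 5.92. Among 7 enzymes related to the synthetases, 3 were higher in both and 3 lower in both. DTD2, a proofreading deacylase, had 3.17, 4.75 and 4.56 FPKM, and TARSL2, a second cytosolic threonine enzyme, 2.85, 2.27 and 2.34. limma called 0 genes of these 5 lists. With the totals implied by FPKM, voom called 1 gene of tRNA modification and 1 of processing and export. It also called 2 of the mitochondrial list and 1 of delivery. All were higher, beside 1.47% of all tested genes. With sums of reads it called 1, of processing and export, also higher, beside 1.00% of all tested genes.

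**Figure D4:**
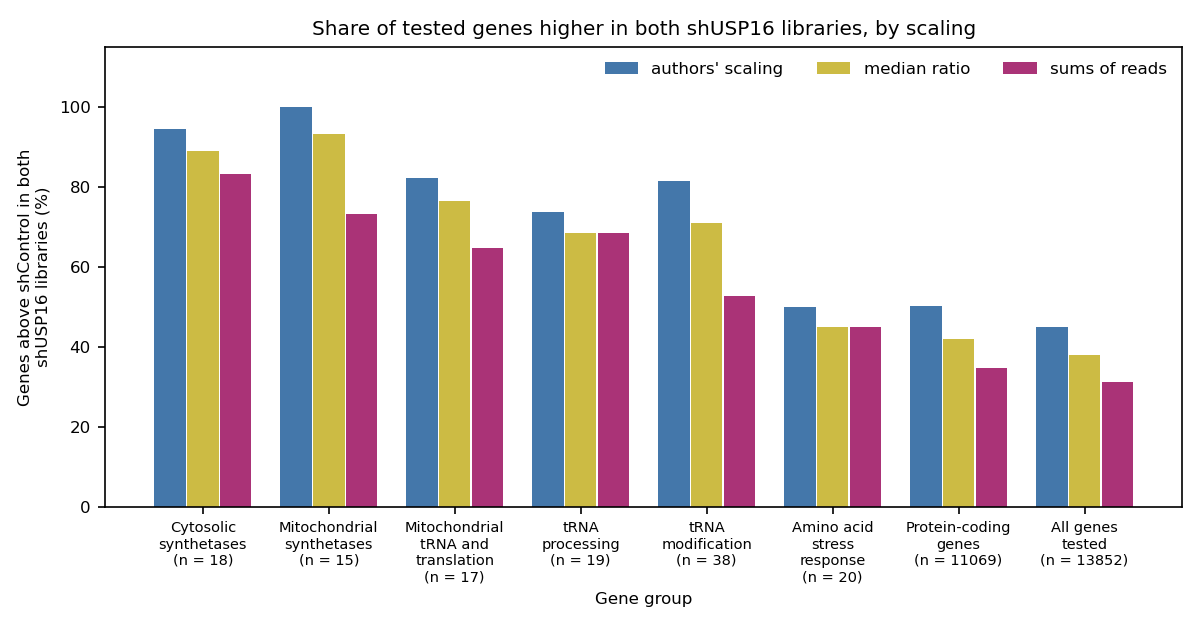
Percentage of tested genes above shControl in both shUSP16 libraries, for synthetases, related gene lists and all genes, with 3 ways of scaling the libraries (bars from 0). With sums of reads the cytosolic synthetases are at 83.3% and the mitochondrial ones at 73.3%, against 31.3% of all tested genes.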

How the data were processed

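RNA-seq of 3 HGC-27 libraries (1 shControl, 2 shUSP16, grouped by title) was deposited by the authors as FPKM per gene with gene length (1 table), per the file headers. Aligner, counting tool and strand setting: not given in the sources used here. Mouse builds are listed in the submitters' processing notes, but all 58735 gene IDs, coordinates and lengths equal those of human GENCODE release 29 (GRCh38), with length as merged exons. Reads per gene were recovered from FPKM times length, which gave whole numbers for 100% of values above 0 (tolerance 0.01 reads).

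limma 3.58.1 (R 4.3.3, moderated variances with a mean trend) compared log2(FPKM + 1) for 13852 genes averaging 1 FPKM or more, with Benjamini-Hochberg adjustment over all of them and a threshold of 0.05; fold changes of low genes are understated. Intervals of read ratios are exact binomial 95% intervals. limma and voom were tested on simulated data with changes larger than that of any member. Only the direction of change had to be recovered, so the simulation does not cover calls at the sizes seen here. All 39 members, USP16, MYC, ATF4 and up to 3 genes per related list (largest difference of the weaker library) were named; 1 gene that this rule picks is not reported here. The members and lists were chosen with earlier results of these data known. Alternatives were the pseudocount, filter, scaling, gene set, trend, voom on reads, fold and each shUSP16 library alone. Other software was matplotlib 3.10.9, pandas 2.3.3, scipy 1.17.1, numpy 2.4.6 and Python 3.11.15.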

Additional observations from a re-analysis of the deposited data

How the results depend on the processing

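limma called 0 members under the 8 other limma fits and at an adjusted p of 0.1; voom called 3 with the totals implied by FPKM and 2 with sums of reads. Over all genes, limma called 13 with a mean of at least 5 FPKM and 48 among protein-coding genes, and voom 348 and 557. Of 380 differences of members recomputed, 7 changed sign. With sums of reads these were AARS (-0.036 in limma and -0.036 in voom), DARS (-0.043 and -0.044) and AARS2 (-0.0017 and -0.0036), and, with 1 shUSP16 library left out, DARS (from -0.0050 without shUSP16-2 to 0.13 without shUSP16-1). The count of cytosolic genes at least 25% above shControl in both libraries went from 5 to 3 with sums of reads, 3 with median ratio scaling and 1 at 50% above, and ranged from 5 to 10 with 1 shUSP16 library left out, 10 being without shUSP16-1. That of mitochondrial genes went from 4 to 2 with sums of reads and 0 at 50% above, and ranged from 4 to 7, 7 being without shUSP16-1. The median difference was 0.17 (cytosolic) and 0.16 (mitochondrial) with sums of reads, 0.21 (mitochondrial) with median ratio scaling and 0.29 (mitochondrial) with a pseudocount of 0.1; with 1 library left out it ranged from 0.27 to 0.37 (cytosolic) and from 0.23 to 0.27 (mitochondrial). The ratio of cytosolic to mitochondrial medians in shControl was 5.54 with GARS and KARS as cytosolic and, chosen after seeing the data, 6.24 per length of the longest coding transcript; in shUSP16 it was 6.33 with GARS and KARS, and from 5.61 to 6.02 with 1 library left out. The cause of these shifts was not tested beyond the construction of each setting. No paired analysis was possible because the shControl label carries no replicate number. The planned quasi-likelihood count test was not run; voom was the test used on the recovered reads. Counts of 32 to 36 reads limit SARS2.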
